A study of Mus musculus with 15 samples.

Results

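The genes described here are 10 inflammasome and IL-1 family genes of the mouse lung, Il1a, Il1b, Il1rn, Il1r1, Il1r2, Il18, Nlrp3, Pycard, Casp1 and Gsdmd. They were picked by gene name from the 57010 genes of the deposited tables, and all 10 were among the 17630 genes that passed the filter on low counts. The series holds 15 RNA libraries in 4 groups, made from the lungs of C57BL/J mice. The silica_DMSO group (n = 4) was given a silica suspension by nasal drops and DMSO (dimethyl sulfoxide, a solvent) on the following day, the silica group (n = 3) was given silica, the DMSO group (n = 4) DMSO, and the control group (n = 4) physiological saline. The mice carried no labelled mutation, lungs were taken at day 30, and the sources used here state no dose, sex or age. The labels do not say whether each library is 1 animal, so p-values measure the spread between libraries.

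IL-1 alpha and IL-1 beta are cytokines that bind the IL-1 receptor and start inflammation through the adaptor MyD88. The IL-1 receptor antagonist, made from Il1rn, binds the same receptor without a signal, and the decoy receptor IL1R2 binds the cytokines without a signal. IL-1 beta and IL-18 are made as inactive precursors that caspase-1 cuts once an inflammasome has formed, in which the sensor NLRP3 gathers the adaptor ASC, the product of Pycard, and caspase-1. Gasdermin D, cut by the same caspase, forms the pores through which the cytokines leave the cell. Silica crystals taken up by macrophages are a known trigger of the NLRP3 inflammasome, but that step acts on protein and is not measured by RNA.

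Of the 15 libraries, 3 stood apart. Rag1, the recombinase of developing lymphocytes, was at 2541 to 3876 CPM (counts scaled to a common library total) in 3 libraries labelled DMSO 7, silica_DMSO 4 and 6, and did not exceed 0.224 CPM in the other 12, called lung libraries here. Sftpc, the surfactant gene of alveolar type 2 cells, was at 108 to 5090 CPM in the 3 thymus-like libraries and at 13855 to 39513 CPM in the lung libraries. The labels' extraction note speaks of retinas, whereas the tissue is given as lung, and 8 retina genes summed to at most 2.09 normalised CPM in any library. Tests used the 12 lung libraries, which leaves 2 silica_DMSO, 3 silica, 3 DMSO and 4 control libraries, and values with all 15 are given where the left-out libraries bear on a result. Totals ran from 17434649 to 20829960 counts per library, and the biological coefficient of variation among lung libraries was 0.520. Lung libraries also fell into a short-gene class of 5 (control 1, DMSO 1, DMSO 4, silica 7 and silica_DMSO 5), with 11.5% to 24.2% of counts in genes over 3000 bases, and a long-gene class of 7, with 34.0% to 44.9%. Levels are given as normalised CPM, which are CPM scaled by TMM (trimmed mean of M values), or, between genes, as TPM (transcripts scaled to the same total), which take gene length into account.

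**Figure D1:**
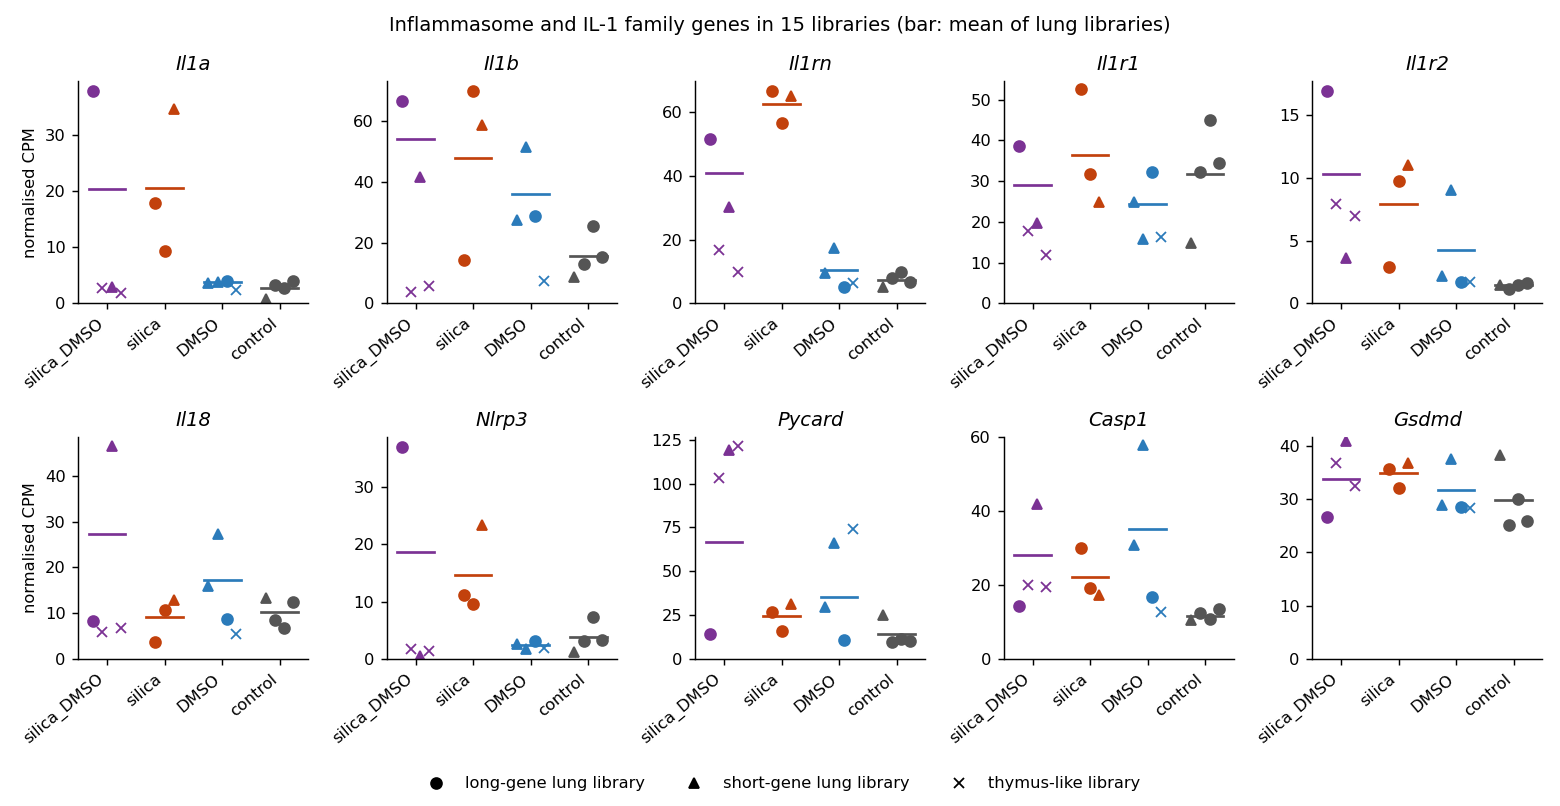
Normalised CPM (vertical axis) of each of the 10 genes in 15 libraries by group, with circles for long-gene lung libraries, triangles for short-gene lung libraries, crosses for thymus-like libraries and a bar at the mean of the lung libraries of a group. Il1rn lies between 30.2 and 66.7 in the 5 lung libraries with silica, above the 7 without, while Gsdmd overlaps between all groups.

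The comparison of lungs with and without silica, averaged over DMSO, gives the term for silica of the design. Il1rn was 5.75-fold higher in lungs given silica in the fit, at 53.9 ± 14.6 normalised CPM in 5 lung libraries with silica and 8.72 ± 4.199 in 7 without (SD). It was the 1 gene of the 10 that rose in edgeR's quasi-likelihood test, by 2.52 ± 0.31 on the log2 scale (SE, adjusted p = 0.0203), ranking 4 among all genes by p. The test called 16 of 17630 genes (0.0908%), all of them higher with silica. All 10 genes had a log2 fold change above 0, with a median of 0.98, where 48.3% of all genes tested were above 0 and their median was -0.012. At an unadjusted p under 0.05 stood 5 of the 10, namely Il1a, Il1b, Il1rn, Il1r2 and Nlrp3, beside 4.21% of all genes. With all 15 libraries the Il1rn value was 2.31 ± 0.39 and the call was lost (adjusted p = 0.207), and edgeR called 0 of 17879 genes, with 594 (3.32%) at an unadjusted p under 0.05. In that fit Il1a stood at 2.34 ± 0.66, Nlrp3 at 2.07 ± 0.77, Il1r2 at 1.86 ± 0.48 and Il1b at 0.83 ± 0.62 (SE, edgeR adjusted p = 0.861 for Il1a and Il1r2 and 1.00 for the others).

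Il1rn encodes the secreted and intracellular forms of the receptor antagonist. It stood at 51.5 and 30.2 normalised CPM in silica_DMSO 2 and 5 and at 66.7, 56.5 and 64.9 in silica 1, 2 and 7. It stood at 9.42, 17.2 and 5.04 in DMSO 1, 4 and 6, and at 5.05, 8.05, 9.71 and 6.56 in control 1, 2, 4 and 7. Every lung library with silica was thus above every lung library without, as for 0.624% of the genes tested. Of the thymus-like libraries, silica_DMSO 4 and 6 were at 16.8 and 9.83 and DMSO 7 at 6.32, inside the range of the lung libraries without silica. Within the short-gene class the mean log2 level was higher by 2.18 in the 2 libraries with silica than in the 3 without, and within the long-gene class by 2.93 in 3 than in 4, with no overlap in either class. On the TPM scale the groups did overlap. Silica_DMSO 2 and 5 were at 44.9 and 3.41 TPM and silica 1, 2 and 7 at 64.55, 35.9 and 25.4 TPM, against 2.92 to 3.43 TPM in DMSO lungs and 1.84 to 10.6 TPM in control lungs. Silica_DMSO 5, which lies inside the range without silica on that scale, had the lowest TMM factor of all lung libraries (0.506) and the lowest share of counts in long genes. In limma's trend test on log2(TPM + 1) the Il1rn difference was 2.29 and was not called (adjusted p = 0.629). The call was also lost when control 1, 2 or 7 or DMSO 1 was left out, with a fold change of 2.45 to 2.55 on the log2 scale (adjusted p = 0.0671, 0.0660, 0.0927 and 0.137).

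RefSeq lists 3 starts of Il1rn, of which the upstream one and the first of a neighbouring downstream pair are shown because the counts per gene cannot tell their transcripts apart. Each window covers 250 bases before the start and 50 after it in build GRCm38.p6, 5′ to 3′ on the strand of the gene, with motif matches in capitals. Motifs searched on both strands were AP-1 (TGANTCA), C/EBP (TTGCNNAA), PU.1 (GAGGAA) and the NF-kB consensus, and TATAAA on the strand of the gene.
Il1rn upstream start, chr2:24336610-24336909, plus strand: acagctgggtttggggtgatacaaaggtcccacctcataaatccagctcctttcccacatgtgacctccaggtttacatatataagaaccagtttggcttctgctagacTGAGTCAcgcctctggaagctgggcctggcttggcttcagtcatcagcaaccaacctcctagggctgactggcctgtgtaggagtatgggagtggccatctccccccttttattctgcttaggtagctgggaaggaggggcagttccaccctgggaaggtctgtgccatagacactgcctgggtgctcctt
Il1rn downstream start, chr2:24345041-24345340, plus strand: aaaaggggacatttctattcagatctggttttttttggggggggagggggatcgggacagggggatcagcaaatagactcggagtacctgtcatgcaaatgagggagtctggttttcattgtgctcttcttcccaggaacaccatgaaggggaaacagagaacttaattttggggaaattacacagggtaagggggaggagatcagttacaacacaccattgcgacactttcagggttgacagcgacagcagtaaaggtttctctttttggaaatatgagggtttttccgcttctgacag
The upstream window holds 1 AP-1 match, TGAGTCA, starting at position -141 from the start of transcription, and the downstream window holds none of the motifs. Of 32851 RefSeq promoter windows of the same length, 7.81% hold an AP-1 match, 10.8% a C/EBP match, 28.3% a PU.1 match, 8.46% the NF-kB consensus and 8.32% TATAAA. Windows were found for 9 of the 10 genes, all but Gsdmd. A match is a match of letters and was not tested for binding.

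Set against control alone, silica gave a larger Il1rn value that did not pass in the fit of 12 libraries. Il1rn averaged 62.7 ± 5.46 normalised CPM in silica lungs and 7.34 ± 1.998 in control lungs (SD, n = 3 and 4), a log2 fold change of 3.09 ± 0.41 with a 95% interval of 2.20 to 3.98 (SE, edgeR adjusted p = 0.0534). In this comparison edgeR called 2 of 17630 genes (0.0113%), neither of them among the 10. Of the 10 genes 9 were higher (47% of all genes) and 4 had an unadjusted p under 0.05 (5.98% of all genes), with a median log2 fold change of 1.27 against -0.030 over all genes. When only the 7 silica and control libraries were fitted, Il1rn rose by 3.12 ± 0.28 (SE, edgeR adjusted p = 0.00716), as 1 of 41 genes called (0.249%), of which 40 were higher (0.243%). DESeq2 called 0.874% of genes, among them Il1rn (adjusted p = 2.36e-09), Il1a (adjusted p = 0.0120) and Il1r2, and with all 15 libraries the edgeR value was 3.12 ± 0.57 (adjusted p = 0.318). Both comparisons of silica share the silica and control libraries and are not independent of each other. For 5 of the 10 genes, Il1a, Il1rn, Il1r2, Nlrp3 and Casp1, every silica library lay above every control library, and for none below, where 5.41% of all genes lay above and 5.19% below.

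The ligand genes Il1a and Il1b differed in how far the groups lay apart. Il1a, a cytokine that is active without cleavage and can be released from dying cells, stood at 37.8 and 2.88 normalised CPM in silica_DMSO 2 and 5 and at 17.8, 9.37 and 34.7 in silica 1, 2 and 7, against 3.60, 3.83 and 4.07 in DMSO 1, 4 and 6 and 0.795, 3.23, 2.72 and 3.997 in control 1, 2, 4 and 7. Lung libraries with and without silica overlapped through silica_DMSO 5 alone, and how many of all genes do so was not counted. The log2 fold change with silica, averaged over DMSO, was 2.67 ± 0.58 and did not pass (SE, edgeR adjusted p = 0.194), whereas DESeq2, which called 0.76% of all genes here, called it (2.68, adjusted p = 0.00105). Without silica_DMSO 2 it was 1.25 (edgeR adjusted p = 0.366). In the thymus-like libraries Il1a stood at 2.73 and 1.91 in silica_DMSO 4 and 6 and at 2.32 in DMSO 7. Counts of Il1a were not whole in 6 of 15 libraries, and the annotated gene Gm14023 overlaps it with 4 to 37.7 counts, up to 118% of the Il1a count of the same library. The sources used here do not say whether the counting used strand, so the lowest Il1a values, such as 13.8 counts in control 1, are uncertain.

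Il1b, the cytokine that caspase-1 activates, stood at 66.6 and 41.5 normalised CPM in silica_DMSO 2 and 5 and at 14.4, 70.0 and 58.8 in silica 1, 2 and 7. It stood at 27.3, 51.5 and 28.9 in DMSO 1, 4 and 6 and at 8.68, 12.9, 25.6 and 15.3 in control 1, 2, 4 and 7. Silica 1 lay inside the control range, and DMSO 4 above silica_DMSO 5, so the groups overlapped. The log2 fold change with silica was 1.10 ± 0.40 (SE, edgeR adjusted p = 0.833). In the thymus-like libraries Il1b was at 3.82, 5.62 and 7.20, below every lung library.

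The promoters of both ligand genes, neighbours on chromosome 2, are shown. A difference between these genes in their change with silica was not tested, nor was a part of the motifs in their levels.
Il1a, chr2:129309923-129310222, minus strand: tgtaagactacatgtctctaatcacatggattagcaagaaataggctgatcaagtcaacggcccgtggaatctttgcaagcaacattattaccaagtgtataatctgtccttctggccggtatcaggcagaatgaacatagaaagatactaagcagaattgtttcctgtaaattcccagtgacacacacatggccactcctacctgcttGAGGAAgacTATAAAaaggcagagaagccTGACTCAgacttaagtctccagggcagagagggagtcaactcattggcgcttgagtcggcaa
Il1b, chr2:129371090-129371389, minus strand: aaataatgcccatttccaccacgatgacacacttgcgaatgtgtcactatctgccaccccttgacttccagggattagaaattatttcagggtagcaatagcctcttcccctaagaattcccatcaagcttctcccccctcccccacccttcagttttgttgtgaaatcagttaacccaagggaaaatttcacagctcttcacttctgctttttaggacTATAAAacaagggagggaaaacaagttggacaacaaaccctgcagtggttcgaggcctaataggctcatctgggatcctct
Both windows hold TATAAA, starting at position -32 in Il1a and -31 in Il1b. The Il1a window also holds a PU.1 match at -41 and an AP-1 match, TGACTCA, at -12, and the Il1b window none of the other motifs searched.

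The balance between antagonist and ligands was taken within each library as the ratio of Il1rn TPM to the sum of Il1a and Il1b TPM. It was 0.424 and 0.388 in silica_DMSO 2 and 5 and 1.87, 0.509 and 0.541 in silica 1, 2 and 7. It was 0.213, 0.199 and 0.101 in DMSO 1, 4 and 6 and 0.388, 0.354, 0.288 and 0.241 in control 1, 2, 4 and 7. All 3 silica libraries were above all controls, and both silica_DMSO libraries were above all DMSO libraries, while silica_DMSO 5 and control 1 were nearly level. Of single genes in normalised CPM, 5.41% lay above in the first comparison and 4.74% in the second. How many ratios of other genes do so was not counted. The thymus-like libraries stood at 2.12 and 1.04 in silica_DMSO 4 and 6 and at 0.574 in DMSO 7. The ratio of Il1b to Il1a was lowest in silica 1 (1.34) and highest in silica_DMSO 5 (22.8), and overlapped between groups.

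**Figure D2:**
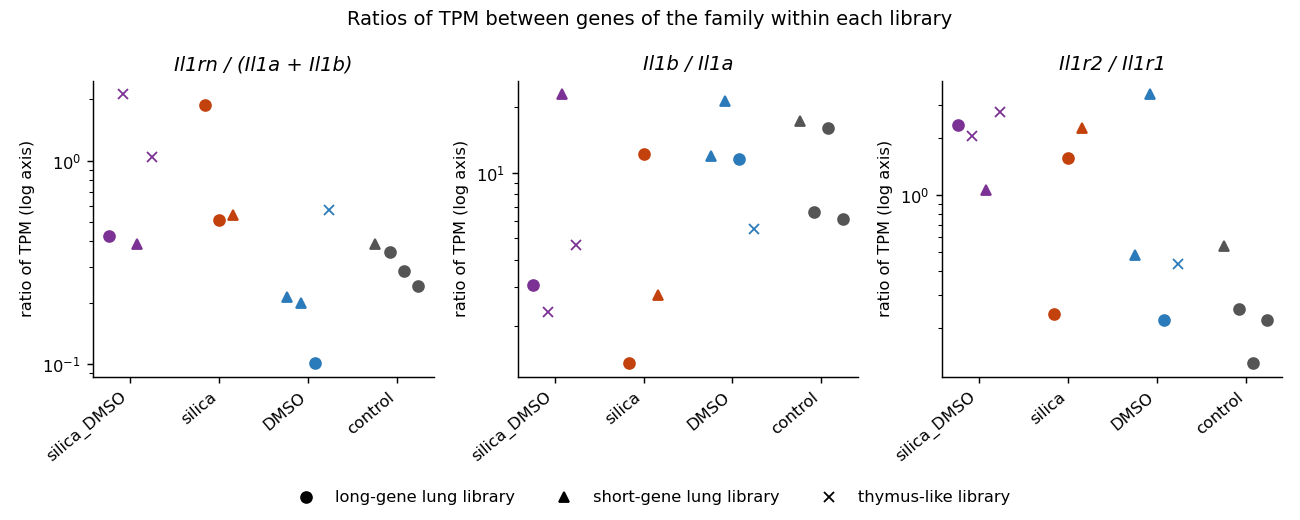
Ratios of TPM within each of 15 libraries (vertical log axes) by group, for the receptor antagonist over both IL-1 ligands, for Il1b over Il1a and for the decoy receptor over the signalling receptor, with symbols for the class of library. The antagonist ratio is 0.509 to 1.87 in silica lungs and 0.241 to 0.388 in control lungs.

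Of the receptors, the decoy and the signalling receptor had different patterns. Il1r2, the decoy, stood at 16.9 and 3.64 normalised CPM in silica_DMSO 2 and 5 and at 2.90, 9.77 and 11.1 in silica 1, 2 and 7, against 2.16, 8.999 and 1.68 in DMSO 1, 4 and 6 and 1.48, 1.14, 1.47 and 1.62 in control 1, 2, 4 and 7. The controls lay close together, and each of the 5 libraries with silica was above them, as was every DMSO lung library. Over all genes, 5.41% had every silica library above every control and 3.71% every DMSO lung library. How many had all 5 libraries with silica above was not counted. On the TPM scale silica_DMSO 5 (0.9), DMSO 1 (1.34) and DMSO 6 (1.5) were not above the controls (1 to 1.89), while the others stayed above. Its log2 fold change with silica was 1.88 ± 0.53 (SE, edgeR adjusted p = 0.465), and 1.12 without silica_DMSO 2, 2.47 without DMSO 4 and 2.82 without DMSO 4 and silica_DMSO 5. In silica against control lungs it was 2.47 ± 0.70 (SE, edgeR adjusted p = 0.456, DESeq2 adjusted p = 0.0473). Il1r1, the signalling receptor, stood at 38.6 and 19.7 in silica_DMSO 2 and 5, at 52.5, 31.7 and 24.9 in silica 1, 2 and 7, at 24.9, 15.9 and 32.2 in DMSO 1, 4 and 6, and at 14.9, 32.3, 45.0 and 34.5 in control 1, 2, 4 and 7. All groups overlapped, and the log2 fold change with silica was 0.23 ± 0.33 with a 95% interval of -0.50 to 0.96 (SE, edgeR adjusted p = 1.00). The ratio of Il1r2 to Il1r1 in TPM was 1.07 to 2.33 in silica_DMSO lungs, 0.238 to 2.26 in silica lungs, 0.219 to 3.39 in DMSO lungs and 0.130 to 0.541 in control lungs.

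Nlrp3, the sensor, overlapped between lung libraries with and without silica through silica_DMSO 5 alone, which was not counted over all genes. It stood at 37.0 and 0.480 normalised CPM in silica_DMSO 2 and 5 and at 11.1, 9.52 and 23.4 in silica 1, 2 and 7, against 2.55, 1.72 and 3.09 in DMSO 1, 4 and 6 and 1.19, 3.18, 7.38 and 3.32 in control 1, 2, 4 and 7. Silica_DMSO 5 had the lowest level of all 15 libraries, from 5 counts, and silica_DMSO 2 the highest. The log2 fold change with silica was 2.44 ± 0.73 (SE, edgeR adjusted p = 0.554), and without silica_DMSO 2 it was -0.21 (edgeR adjusted p = 0.897). In silica against control it was 1.95 ± 0.93 (edgeR adjusted p = 0.855). The thymus-like libraries held 1.68 and 1.45 in silica_DMSO 4 and 6 and 1.88 in DMSO 7. Its promoter at the upstream of 2 RefSeq starts is shown as the window among the printed ones with a match to the NF-kB consensus. Of the windows not printed, that of the downstream Il1r1 start also holds such a match. That of the downstream Nlrp3 start holds none, but 3 PU.1 matches.
Nlrp3 upstream start, chr11:59541319-59541618, plus strand: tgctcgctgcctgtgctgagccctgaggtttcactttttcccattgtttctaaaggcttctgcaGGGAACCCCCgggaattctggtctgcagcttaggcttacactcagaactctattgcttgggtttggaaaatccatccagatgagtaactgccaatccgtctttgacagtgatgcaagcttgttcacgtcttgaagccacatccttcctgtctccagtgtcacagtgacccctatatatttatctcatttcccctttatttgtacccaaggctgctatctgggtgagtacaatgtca
The match, GGGAACCCCC, starts at position -186 and is read on both strands.

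Pycard and Casp1, the adaptor and the protease, overlapped between libraries with and without silica. Pycard stood at 14.5 and 119 normalised CPM in silica_DMSO 2 and 5 and at 26.8, 15.9 and 31.5 in silica 1, 2 and 7, against 29.9, 66.1 and 10.7 in DMSO 1, 4 and 6 and 25.3, 9.46, 11.3 and 10.2 in control 1, 2, 4 and 7. Silica_DMSO 5 and DMSO 4 were far above the rest in groups with and without silica, and the log2 fold change with silica was 0.86 ± 0.55 (SE, edgeR adjusted p = 1.00). In the thymus-like libraries Pycard was at 103 and 121 in silica_DMSO 4 and 6 and at 74.4 in DMSO 7. Casp1 stood at 14.4 and 41.9 in silica_DMSO 2 and 5, at 30.1, 19.2 and 17.4 in silica 1, 2 and 7, at 30.9, 57.8 and 16.8 in DMSO 1, 4 and 6, and at 10.4, 12.5, 10.7 and 13.4 in control 1, 2, 4 and 7. Every silica and every DMSO lung library was above the controls, as for 5.41% and 3.71% of all genes. The controls lay within a narrow range, and the log2 fold change with silica was 0.30 ± 0.35 (SE, edgeR adjusted p = 1.00). On the TPM scale silica 7 (8.95) lay inside the control range of 5.09 to 11.03, while DMSO lungs were at 13.26 to 14.51.

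Il18, a substrate of caspase-1, and Gsdmd, the pore, completed the set. Il18 stood at 8.36 and 46.5 normalised CPM in silica_DMSO 2 and 5, at 3.68, 10.6 and 13.0 in silica 1, 2 and 7, at 15.9, 27.4 and 8.80 in DMSO 1, 4 and 6, and at 13.2, 8.46, 6.82 and 12.5 in control 1, 2, 4 and 7. The groups overlapped, and silica_DMSO 5 was again the highest library (log2 fold change with silica 0.24 ± 0.47, SE, edgeR adjusted p = 1.00). The gene Bco2 overlaps Il18 with up to 43.5% of its count. Gsdmd had the smallest SD relative to its mean in normalised CPM, 5.45 around 32.2 over 12 lung libraries. It stood at 26.6 and 41.0 in silica_DMSO 2 and 5, at 35.7, 32.1 and 36.8 in silica 1, 2 and 7, at 28.9, 37.5 and 28.5 in DMSO 1, 4 and 6, and at 38.2, 25.1, 30.0 and 25.8 in control 1, 2, 4 and 7. Its log2 fold change with silica was 0.16 ± 0.20, with a 95% interval of -0.28 to 0.59 (SE, edgeR adjusted p = 1.00).

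**Figure D3:**
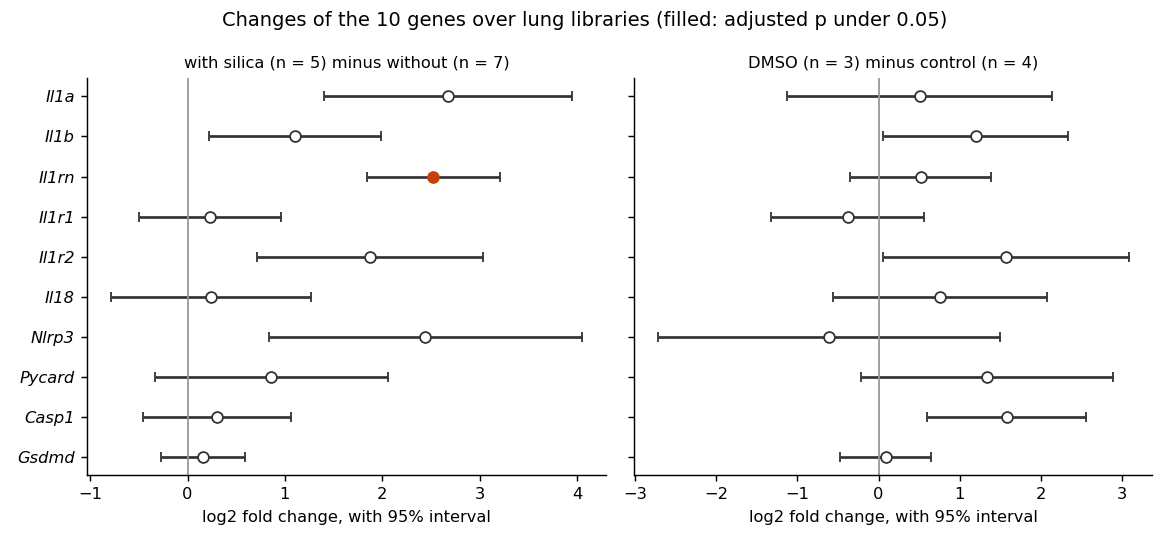
Log2 fold changes (horizontal axes) of the 10 genes with 95% intervals from the edgeR fit of 12 lung libraries, for lungs with minus without silica, averaged over DMSO, and for DMSO minus control lungs. The filled point, Il1rn with silica at 2.52, is the 1 value past the threshold.

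On the TPM scale, which compares genes per length, the order of the 10 genes differed between groups. In silica lungs Il1rn was first at a mean of 42.0 ± 20.3 TPM, level with Il1b (39.8 ± 23.2) and Gsdmd (34.1 ± 21.7) within their spread (SD, n = 3). In control lungs Gsdmd led at 27.1 ± 8.83 TPM, followed by Il18 (19.7 ± 3.696), Il1b (16.8 ± 12.7), Pycard (15.9 ± 6.74), Casp1 (9.32 ± 2.83), Il1r1 (7.52 ± 4.73) and Il1rn (5.52 ± 3.71). Il1a (1.72 ± 0.98 TPM), Il1r2 (1.56 ± 0.39) and Nlrp3 (1.22 ± 1.05) were last (SD, n = 4), and the means of neighbours in this order differed by less than the larger of their SDs except Il1rn and Il1a, where the ratio was 1.03. Nlrp3 was the lowest of the 10 over all 12 lung libraries, at a mean of 2.41 ± 3.29 TPM (SD). Il18 varied least on this scale, at 18.6 ± 3.56 TPM over 12 lung libraries with a range of 10.5 to 24.8 TPM. In the 3 thymus-like libraries Pycard was first by far, at 152 ± 53.8 TPM, with Gsdmd next at 34.8 ± 5.43 TPM (SD).

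Silica_DMSO lungs were set against silica lungs, which bears on the inhibitory effect of DMSO that the series title names. None of the 10 genes passed, and edgeR called 0 of 17630 genes (0%), with 342 (1.94%) at an unadjusted p under 0.05, and DESeq2 0. Of the 10 genes 6 were higher and 4 lower (48.9% of all genes were higher), with a median log2 fold change of 0.26 against -0.016 over all genes. With all 15 libraries the balance turned to 4 higher and 6 lower, with Il1b at -0.70 ± 0.90 against 0.18 ± 0.62 in the 12 lung libraries (SE). Il1rn averaged 40.8 ± 15.04 normalised CPM in silica_DMSO lungs and 62.7 ± 5.46 in silica lungs (SD, n = 2 and 3), a log2 fold change of -0.62 ± 0.48 with a 95% interval of -1.66 to 0.43 (SE, edgeR adjusted p = 0.997). Both silica_DMSO lung libraries were below all silica libraries, as for 3.83% of all genes. With all 15 libraries the value was -1.26 ± 0.55 (SE, edgeR adjusted p = 0.708), where the thymus-like silica_DMSO 4 and 6 enter. Il18 was the 1 gene of the 10 at an unadjusted p under 0.05 (1.59 ± 0.71, edgeR adjusted p = 0.997), and its value was -0.10 without silica_DMSO 5. Nlrp3 stood at 0.36 ± 1.10 (-0.54 ± 1.10 with all 15 libraries) and Il1a at -0.012 ± 0.87, with silica_DMSO 2 and 5 on either side of the silica libraries for both. At 37.0 and 0.480 normalised CPM of Nlrp3, the silica_DMSO lung libraries spanned a wider range than the silica libraries do.

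Against DMSO lungs, silica_DMSO lungs again had more Il1rn RNA without a call. The values were 40.8 ± 15.04 and 10.6 ± 6.17 normalised CPM in silica_DMSO and DMSO lungs (SD, n = 2 and 3), a log2 fold change of 1.96 ± 0.47, with both silica_DMSO libraries above all DMSO libraries, as for 4.74% of all genes (SE, edgeR adjusted p = 1.00). EdgeR called 0 of 17630 genes here (0%), with 335 (1.9%) at an unadjusted p under 0.05, and DESeq2 10 (0.0571%), none of them among the 10 genes. Of the 10 genes 9 were higher (54.5% of all genes), and 8 with all 15 libraries. Il1a (2.41 ± 0.88) and Nlrp3 (2.93 ± 1.13) were also at an unadjusted p under 0.05, and without silica_DMSO 2 both turned round, to -0.43 and -2.37. The difference of the silica effect with and without DMSO was -1.13 ± 0.62 for Il1rn, with a 95% interval of -2.49 to 0.22 (SE, edgeR interaction, adjusted p = 1.00). In that interaction edgeR called 0 of 17630 genes (0%), with 485 (2.75%) at an unadjusted p under 0.05, and DESeq2 1 (0.00571%). Of the 10 genes 4 had an interaction above 0 (54.3% of all genes), and 3 with all 15 libraries.

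DMSO alone was set against saline control. None of the 10 genes passed, and edgeR called 0 of 17630 genes (0%), with 1519 (8.62%) at an unadjusted p under 0.05, and DESeq2 60 (0.357%). Of the 10 genes 8 were higher (47.8% of all genes), with a median log2 fold change of 0.64 against -0.040 over all genes. Casp1 averaged 35.2 ± 20.8 normalised CPM in DMSO lungs and 11.7 ± 1.42 in control lungs (SD, n = 3 and 4), a log2 fold change of 1.58 ± 0.45 (SE, edgeR adjusted p = 0.513). Il1b averaged 35.9 ± 13.5 and 15.6 ± 7.21 (1.20 ± 0.52) and Il1r2 4.28 ± 4.09 and 1.42 ± 0.20 (1.57 ± 0.69) in DMSO and control lungs. For these 3 genes every DMSO lung library was above every control, as for 3.71% of all genes. Without DMSO 4 the Il1r2 value was 0.44, and by limma's trend test on log2(TPM + 1) the 3 values were 0.57 for Casp1, 0.39 for Il1b and 0.15 for Il1r2. In DMSO 7, the thymus-like library, Casp1 was at 12.7, Il1b at 7.20 and Il1r2 at 1.73. Il1rn stood at 0.52 ± 0.39 and Nlrp3 at -0.61 ± 0.96. The highest DMSO value of Il1b, Il1rn, Il1r2 and Casp1 was in DMSO 4 in each case. This library had the highest sum of 10 neutrophil genes, 2276 normalised CPM. DMSO 1 and 6 stood at 533 and 295, and control lungs at 104 to 199. DMSO 4 was also the highest DMSO lung library for monocyte and interstitial macrophage genes (1412, against 494 and 280 in DMSO 1 and 6). The same held for alveolar macrophage genes (1359, against 1163 and 608) and club and ciliated cell genes (208972, against 97840 and 49116). DMSO 4 had the lowest TMM factor (0.653) and the lowest share of counts in long genes (12.4%) of the DMSO lung libraries. In DMSO against control lungs 8 of 10 neutrophil genes (median 2.13) and 6 of 6 club and ciliated cell genes (median 1.17) were higher. Of the endothelial genes 0 of 6 were higher (median -0.89), and of the alveolar type 1 genes 0 of 6 (median -0.72). The part of these cells in the values of the 10 genes was not tested.

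Marker lists of other cells were read in the same fits, and no gene of them was called. The 10 monocyte and interstitial macrophage genes summed to 560 and 1851 normalised CPM in silica_DMSO 2 and 5 and to 688 to 795 in silica lungs, against 280 to 1412 in DMSO lungs and 290 to 341 in control lungs. All 10 were higher with silica, averaged over DMSO, with a median log2 fold change of 1.20. The 10 neutrophil genes summed to 424 and 603 in silica_DMSO 2 and 5, 145 to 784 in silica lungs, 295 to 2276 in DMSO lungs and 104 to 199 in control lungs, and 9 were higher with silica, with a median of 0.70. In silica_DMSO against DMSO lungs 3 of these 10 were higher (median -0.42), and all 10 had an interaction of silica and DMSO below 0 (median -1.96). Ly6g was at 0 in control 1 and Camp in control 2. No other gene of the neutrophil or the monocyte and interstitial macrophage list was at 0 in a lung library. The sum of 10 alveolar macrophage genes overlapped between groups, at 779 and 1607 in silica_DMSO lungs, 557 to 1193 in silica lungs, 608 to 1359 in DMSO lungs and 548 to 869 in control lungs, with 6 of 10 higher with silica (median 0.090). Of 6 dendritic cell genes 2 were higher (median -0.033). In silica against control lungs 0 of 6 endothelial genes (median -0.92) and 0 of 6 alveolar type 1 genes (median -0.63) were higher. Averaged over DMSO, 1 of 6 was higher in each of these lists (medians -0.27 and -0.21). In silica_DMSO against DMSO lungs 6 of 6 were higher in each (medians 0.33 and 0.23). In silica against control lungs all 10 neutrophil genes (median 1.58) and all 10 monocyte and interstitial macrophage genes (median 1.38) were higher. Silica 1 had the highest Il1rn level of all libraries (66.7). Its neutrophil sum was 145, inside the control range, and its monocyte and interstitial macrophage sum was 795, above the control range. As for DMSO, the part of these cells in the IL-1 family values was not tested. In whole lung, more cells of a type cannot be told apart from more RNA per cell.

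Pycard, Il18 and Il1r1 differed between the classes of library. Pycard was at 25.3 to 119 normalised CPM in the 5 short-gene libraries and at 9.46 to 26.8 in the 7 long-gene ones, with means of 54.4 and 14.1. Il18 was at 13.0 to 46.5 in short-gene and 3.68 to 12.5 in long-gene libraries. Il1r1, with 5819 bases the longest of the 10, differed in the opposite direction. It was at 14.9 to 24.9 in short-gene and 31.7 to 52.5 in long-gene libraries, with no overlap. In lung libraries without silica, Nlrp3 was at 1.19 to 2.55 in short-gene and 3.09 to 7.38 in long-gene ones. Casp1 averaged 31.7 in short-gene and 16.7 in long-gene libraries, with overlapping ranges. Il18 has a listed length of 702 bases and Pycard 3800 bases, over the median of 2653 bases of the genes tested. In control 1, though, Pycard had 446 counts and 25.15 TPM, and Gsdmd, of 1792 bases, 674 counts and 21.14 TPM. The TPM of Pycard thus rest on a length well under the listed 3800 bases. In the long-gene class, which holds 3 libraries with silica and 4 without, Il1a, Il1rn, Il1r2, Nlrp3 and Pycard lay higher in all 3 with silica than in all 4 without, by 2.27, 2.93, 2.11, 1.87 and 0.79 on the log2 scale, as did 6.66% of all genes tested. In the short-gene class, with 2 libraries with silica and 3 without, Il1rn did so alone of the 10, as did 4.15% of all genes. With class as a covariate, the Il1rn value with silica was 2.52 (edgeR adjusted p = 0.0123).

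**Figure D4:**
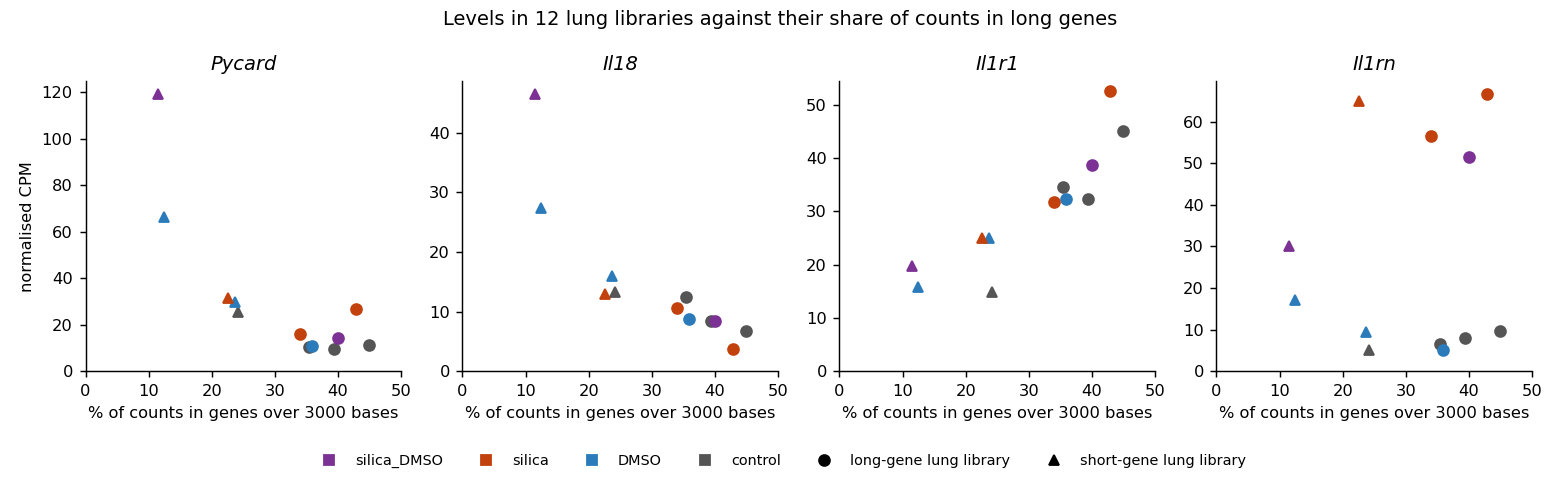
Normalised CPM (vertical axes) of Pycard, Il18, Il1r1 and Il1rn in 12 lung libraries against the share of counts in genes over 3000 bases (horizontal axes, %), coloured by group, with triangles for short-gene and circles for long-gene libraries. Pycard and Il18 are highest at the smallest shares and Il1r1 is higher in the long-gene libraries, while Il1rn parts libraries with silica from those without at both ends.

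Other genes of the pathway were read from lists of 68 genes, of which 63 were in the table and 52 were tested. No gene of the lists passed in any of the 6 edgeR comparisons, and with silica, averaged over DMSO, 42 were higher and 10 lower, with a median log2 fold change of 0.40 against -0.012 over all genes. The 13 genes induced by IL-1 were all higher (median 1.31), as were 10 of 11 other inflammasome sensors (median 0.49) and 3 of 3 other ligands and binding proteins (median 0.68). Of 8 signalling genes below the receptors, 5 were higher (median 0.10), and of 6 other receptors of the family 3 were higher (median -0.019). Of 9 regulators of NLRP3 and other inflammatory caspases 6 were higher (median 0.23), and both pore and lysis genes tested were higher (median 0.59). In silica_DMSO against silica lungs 1 of the 11 other sensors was higher and 10 were lower (median -0.55), again with none called. These lists, like the 10 genes, were chosen with results of these libraries known.

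The 5 pathway genes of smallest p were Cxcl1, Cxcl2, Mefv, Cxcl5 and Saa3. Cxcl1, a neutrophil chemokine induced by IL-1, stood at 21.3 and 15.8 normalised CPM in silica_DMSO 2 and 5 and 4.55, 6.81 and 21.3 in silica 1, 2 and 7, against 1.496, 6.81 and 2.56 in DMSO 1, 4 and 6 and 0.795, 1.55, 1.77 and 2.29 in control 1, 2, 4 and 7 (log2 fold change with silica 2.56 ± 0.49, SE, edgeR adjusted p = 0.1195). DMSO 4 lay inside the silica range and the controls below it. Cxcl2, a related chemokine, was at 296 in silica_DMSO 2 and 211 in silica 7 and at 3.66 to 9.27 in the other 3 lung libraries with silica, against 0.665 to 4.15 in DMSO lungs and 0.454 to 6.60 in control lungs (5.49 ± 1.26, SE, edgeR adjusted p = 0.251). The same pair of libraries, silica_DMSO 2 and silica 7, had the highest levels of Il1a and Nlrp3. Mefv, which encodes the inflammasome sensor pyrin, was at 11.4 and 2.40 in silica_DMSO 2 and 5 and 5.96 to 10.005 in silica lungs, against 1.37 to 2.27 in DMSO lungs and 0.681 to 2.85 in control lungs (1.99 ± 0.47, SE, edgeR adjusted p = 0.273). Cxcl5 (2.68 ± 0.70) and the acute-phase gene Saa3 (3.66 ± 0.96) were highest in silica_DMSO 5, at 19.4 and 795 normalised CPM (SE, edgeR adjusted p = 0.382 and 0.383). DESeq2 called Cxcl1, Mefv, Cxcl5 and Saa3 with silica (adjusted p = 0.000137, 0.00882, 0.0155 and 0.00316) and gave no adjusted p for Cxcl2.

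**Figure D5:**
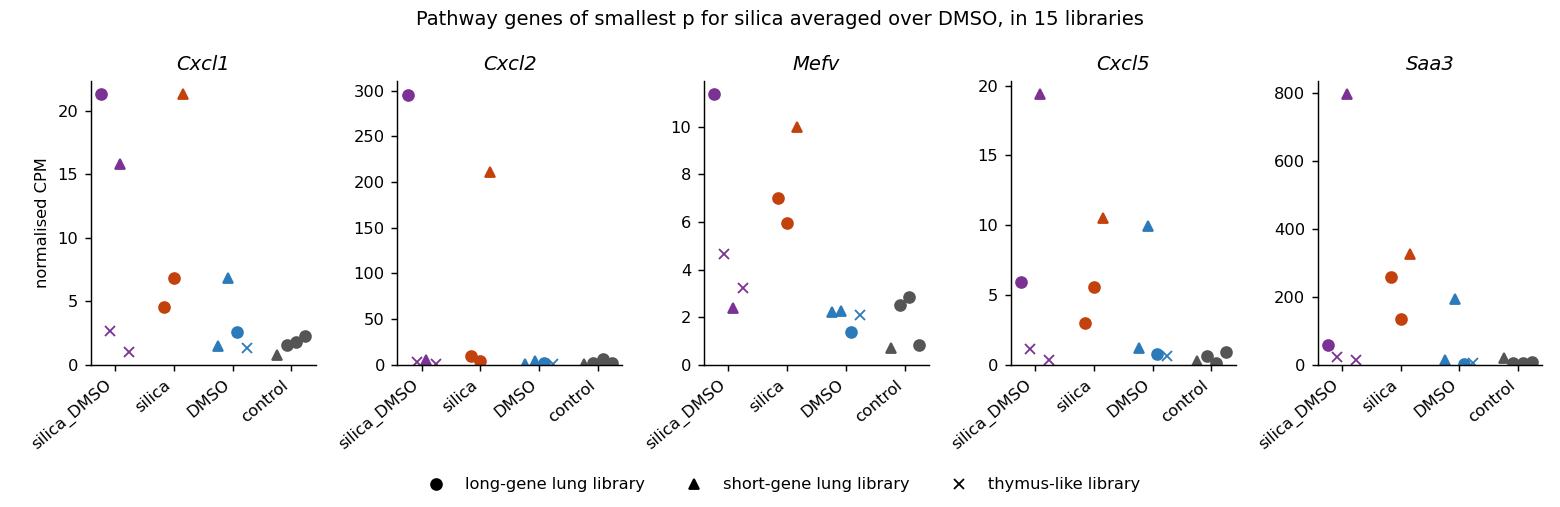
Normalised CPM (vertical axes) of the 5 pathway genes of smallest p for silica averaged over DMSO, in 15 libraries by group, with symbols for the class of library. Cxcl2 exceeds 200 in 2 libraries, silica_DMSO 2 (296) and silica 7 (211), and is below 10 in the others.

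The genes most like each of the 10 were found by Pearson correlation of log2 levels over 12 lung libraries, among 13861 genes whose mean level reached 1 CPM. Il1rn was nearest to Ccr1, a chemokine receptor of myeloid cells (r = 0.949), Mmp12, the macrophage elastase (r = 0.948), and Slc39a2, a zinc transporter (r = 0.942). These 3 genes were, with Il1rn, among the 16 called with silica in the same libraries. Nlrp3 was nearest to Lmnb1 (r = 0.954), Pim1 (r = 0.949) and Tnfaip3, a brake on NF-kB (r = 0.905), and Il1a to Sgms2 (r = 0.911), Mefv (r = 0.896) and Slc7a11, a cystine transporter (r = 0.881). Il1b was nearest to Asprv1 (r = 0.952), and Il1r2 to Hcar2 (r = 0.946), a receptor gene that was also second for Il1b (r = 0.849). Il1r1 was nearest to Rab3gap2, Igf2r and Wdfy2 (r = 0.977 to 0.981), of 7052, 8887 and 6646 bases, and Pycard to Cyba (r = 0.982) and Cmtm7 (r = 0.977), of 744 and 993 bases. Casp1 was nearest to Cd48 (r = 0.979), Il18 to Gkn3 (r = 0.982) and Gsdmd to Tmem86a (r = 0.970). Among the 10 genes themselves r was 0.857 for Il1a and Nlrp3, 0.856 for Il1b and Il1r2, 0.817 for Il1a and Il1rn, 0.833 for Pycard and Gsdmd and -0.806 for Il1r1 and Il18. These correlations describe 12 libraries that share treatment, depth scaling and class of library, and carry no test.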

How the data were processed

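Lung RNA libraries were made with a TruSeq RNA kit, per the labels' protocols. The processing notes of the submitters list Bowtie 0.12.2 and build mm8 without saying for which step. The authors deposited expected counts and TPM for each gene and library, per the file headers, together with a gene length in bases. How the counts were estimated, and whether strand was used, the sources used here do not say. The 8 deposited columns of group means were not used. Promoter sequences come from RefSeq (GRCm38.p6), matched by symbol, and overlaps between genes from the GENCODE M21 annotation, matched by gene identifier.

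Expected counts were rounded, with an effect of 53.9 counts or less on any total. Genes of low count were removed by filterByExpr of edgeR (count 10, total 15) and libraries scaled by TMM. The 4 group means were fitted to the 12 lung libraries by the robust quasi-likelihood F test of edgeR. Benjamini-Hochberg adjustment ran over all 17630 genes, and a call is an adjusted p under 0.05. Libraries with at least 100 CPM of Rag1 were left out and put back in an alternative. SE is the log2 fold change divided by the square root of F. A library was short-gene with under 30% of counts in genes over 3000 bases. Log2 levels within a class were taken after adding 0.5 CPM, and those for correlations with a prior count of 2. The genes named are the 10 genes, the 5 pathway genes of smallest p with silica, any pathway gene called, and the 3 genes most correlated with each of the 10. The gene set, lists, left-out libraries and classes were chosen with earlier results of these data known.

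Tools were R 4.3.3, edgeR 4.0.16, limma 3.58.1, DESeq2 1.42.0, Python 3.11.15 and matplotlib 3.10.9. Data were simulated for 17386 genes drawn independently, without classes of library. For silica averaged over DMSO, 10% of genes changed 2-fold, 78% of 4-fold and 86% of 8-fold ones were called. For silica against control the shares were 0%, 36% and 82%. Alternatives were all 15 libraries, only the groups compared, DESeq2 size factors, DESeq2's Wald test, no filter, limma-trend on log2(TPM + 1) or log2(TPM + 0.1), a replicate block, class as a covariate and leaving out each library. A fit without the 2 libraries of lowest TMM factor was added after seeing the data.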

Additional observations from a re-analysis of the deposited data

Results flagged for a closer look

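In 30 groups of 4 libraries, thymus-like ones included, 7 values lay far from the other 3 of their group by Dixon's gap test. That test flags about 1 of 20 groups by chance only where values are independent and normally distributed. The levels used were not on a log scale, the groups mix classes of library, and the genes share the same libraries. The 7 flagged values therefore cannot be set against that rate, and serve as a list of values to check. Il1a in silica_DMSO 2 was at 37.8 normalised CPM, with the next library, silica_DMSO 5, at 2.88, and Nlrp3 in the same library was at 37.0, with the next, a thymus-like library, at 1.68. Pycard in silica_DMSO 2 was at 14.5, below the other 3 libraries of the group. The nearest of these, at 103, is thymus-like, as is another, and 14.5 lies inside the range of long-gene lung libraries, 9.46 to 26.8. Il18 in silica_DMSO 5 was at 46.5, with the next at 8.36. Il1r2 in DMSO 4 was at 8.999, with the next at 2.16, and Gsdmd in DMSO 4 was at 37.5, with the next at 28.9. Pycard in control 1, a short-gene library, was at 25.3, with the next at 11.3.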

How the results depend on the processing

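Under the settings tried, leaving out libraries included, the Il1rn log2 fold change with silica, averaged over DMSO, stayed between 2.29 and 2.99. Its call was lost when control 1, 2 or 7 or DMSO 1 was left out. It was also lost with all 15 libraries, on both TPM scales and with the replicate block (edgeR adjusted p = 0.957). The count of the 10 genes called, 1 there, was 0 in those settings and 2 with DESeq2, and in silica against control it was 1 with only the groups compared, no filter, the class covariate or the 2 lowest factors left out, and 3 with DESeq2. Counts over all genes for silica averaged over DMSO (16) were 0 with 15 libraries or the block, 133 with DESeq2, 31 unfiltered, 3 and 5 on log2(TPM + 1) and log2(TPM + 0.1), 27 with the class covariate and 3 without the 2 lowest factors. For silica against control (2) they were 0, 0, 150, 21, 15 and 40 with 15 libraries, the block, DESeq2, no filter, the covariate and the 2 lowest factors left out, and 41 with only the 7 libraries. For silica_DMSO against DMSO (0) they were 10 with DESeq2 and 1 unfiltered, on log2(TPM + 1) or with the covariate, and elsewhere DESeq2 called 60 for DMSO against control and 1 for the interaction. Leaving out each lung library in turn gave 1 to 16 genes averaged over DMSO, 1 to 13 for silica against control, 0 to 3 for silica_DMSO against DMSO and 0 to 2 for each of the other 3 comparisons, with 0 to 1 of the 10 genes in both silica comparisons.

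All alternatives were read for all 10 genes in both silica comparisons, for 2 genes in silica_DMSO against silica, 3 in silica_DMSO against DMSO, 4 in DMSO against control and 1 in the interaction, and the fit of 15 libraries for all 10 throughout. Signs turned as follows, and the cause was not tested. With all 15 libraries Nlrp3 was at -0.54 and Il1b at -0.70 in silica_DMSO against silica, and Il1r1 at -0.052 in silica_DMSO against DMSO and -0.29 in the interaction. With silica, averaged over DMSO, Il18 was at -0.099 and -0.11 on the TPM scales, -1.08 with the block and -0.35 without the 2 lowest factors, and Casp1 at -0.22 with the block. Leaving out libraries gave lowest and highest values of -0.60 and 0.62 for Il18, -0.16 and 0.61 for Casp1, -0.22 and 1.30 for Pycard, -0.21 and 2.95 for Nlrp3 and -0.068 and 0.46 for Il1r1. In silica against control the ranges were -0.17 to 0.42 for Il1r1 and -0.52 to 0.20 for Il18. In silica_DMSO against silica Il18 was at -0.027 with the block and -0.11 without the 2 lowest factors, with a range of -0.10 to 2.34. In silica_DMSO against DMSO the ranges were -0.43 to 3.32 for Il1a and -2.37 to 3.92 for Nlrp3. In DMSO against control Il1rn was at -0.48 and -0.54 on the TPM scales and -0.013 without the 2 lowest factors, with a range of -0.016 to 0.86. On the TPM scales the median of all genes shifted by -0.46 and -0.74 in silica_DMSO against silica and by -0.41 and -0.64 in DMSO against control, so changes there are relative to it.

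Of 8 pairs of libraries with the same number, 3 had a correlation of deviations over 0.1 (-0.46 to 0.39), and 0 of 10 libraries correlated best with their own number, so the numbers were not taken to pair the libraries. In the simulation, with 2 to 4 lung libraries per group, 2-fold changes were mostly missed. Of 4-fold changes, 78% were called for silica averaged over DMSO and 36% for silica against control. The simulation drew genes independently, without the classes of library, and changed 50 genes at each of 2-, 4-, 8- and 16-fold. The real fits called 16 and 2 genes, so these shares may not hold for them. The other comparisons were not simulated.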

Other observations

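The ratio of Nlrp3 TPM to Pycard TPM, the sensor over its adaptor, differed most between silica_DMSO 2 and 5. These are a long-gene and a short-gene library, at 0.689 and 0.000766, the highest and the lowest of all 15 libraries. The value of silica_DMSO 5 rests on 5 Nlrp3 counts (0.03 TPM). The ratio was 0.119, 0.132 and 0.152 in silica 1, 2 and 7, and 0.0174, 0.00529 and 0.0627 in DMSO 1, 4 and 6. In control 1, 2, 4 and 7 it was 0.00716, 0.0963, 0.165 and 0.0888. The thymus-like libraries stood at 0.00315 and 0.00220 in silica_DMSO 4 and 6 and at 0.00703 in DMSO 7. Silica 7, a short-gene library, lay near the long-gene libraries silica 1 and 2 in this ratio, while the other 4 short-gene libraries were at 0.0174 or less.

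The remaining genes of the set were measured in the thymus-like libraries as well. Il1r1 was at 17.8 and 11.7 normalised CPM in silica_DMSO 4 and 6 and at 16.3 in DMSO 7, near the short-gene lung libraries. Il1r2, the decoy, was at 7.92 and 6.92 in silica_DMSO 4 and 6 and at 1.73 in DMSO 7. Casp1 was at 20.02 and 19.5 in silica_DMSO 4 and 6 and at 12.7 in DMSO 7, and Gsdmd at 36.8 and 32.5 in silica_DMSO 4 and 6 and at 28.4 in DMSO 7. Il18 was at 5.78 and 6.82 in silica_DMSO 4 and 6 and at 5.38 in DMSO 7.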
